A study of Mus musculus with 4 samples.

Results

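Apoe, the mouse gene for apolipoprotein E, was followed across 4 single-cell libraries and across the cell types of blood formation. It was found as the row with the symbol Apoe (ENSMUSG00000002985), 1 of 32285 genes in the deposited matrices. The gene was chosen by its measured levels, which were far below control in the Mll4-deleted and Mll3/4-deleted libraries, also within stem and multipotent cells. Those differences are therefore given as a description, and nothing is supported with them. The order of cell types in control and the values in the Mll3-deleted library were not part of that choice. How the fall differed between cell types was not named in it, although each class adds to the library-wide value.

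Apolipoprotein E is a secreted protein that carries cholesterol and phospholipid between cells and is taken up through lipoprotein receptors at the cell surface. Macrophages make it in quantity, and in them its gene is a target of the LXR nuclear receptors together with the cholesterol exporters Abca1 and Abcg1. In blood stem and progenitor cells, apolipoprotein E is known to sit at the cell surface and to promote cholesterol efflux, and mice without it have more of these cells when blood cholesterol is high. Mll3 and Mll4, encoded by Kmt2c and Kmt2d, are related histone methyltransferases that place methyl groups on histone H3 lysine 4 at enhancers.

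The cells were CD45.2+ Kit+ mouse bone marrow, collected 10 weeks after transplantation, with gene expression and surface antibodies read from the same cells. Each group is 1 library, so there are 4: a control, 1 with Mll3 deleted, 1 with Mll4 deleted and 1 with both deleted (Mll3/4). The labels give no genotype or agent beyond these names, no age or strain of donors and hosts, no Cre driver and no number of animals, and they do not say what the 2 hashtag antibodies mark. A single library stands for each group, so no test between conditions can be made. The 95% intervals hold counting error alone, and what is compared is libraries. Shares of cells describe what the Kit+ CD45.2+ sort let through.

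After filtering, 7146, 5860, 5350 and 6917 cells were kept in the order above, with a median depth of 15754, 16963.5, 5142 and 9965 UMIs per cell. UMIs are counted molecules, and levels are given as CPM, the UMIs of a gene per 1000000 gene UMIs, both summed over a group of cells. The Mll4-deleted library was thus the shallowest. Pairs of libraries shared between 9 and 24 cell barcodes. Kmt2d, the gene of Mll4, had 25.8 CPM in control against 24.99 with Mll4 and 24.7 with Mll3/4 deleted, so it did not fall with the labels. Reads from the 3′ end check nothing where the deleted exons lie elsewhere. Kmt2c, the gene of Mll3, had 47.9 CPM in control and 27.2, 59.2 and 34.8 CPM with Mll3, Mll4 and Mll3/4 deleted. Xist, the X-inactivation transcript of female cells, had 989.9 CPM in control but 0.519 CPM with Mll4 deleted, so sex and deletion cannot be told apart there. The deleted libraries are therefore named by their labels below, as Mll4-labelled and so on, and what is said of Mll4 holds only as far as its label does.

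Apoe lies on the minus strand of chromosome 7, from 19696109 to 19699188 in GRCm38, with 4 exons in GENCODE M21. RefSeq lists 3 start sites for it. The 250 bases before the outermost start, at chr7:19699189-19699438 on the minus strand, are printed as the sequence next to the annotated gene, while counts from the 3′ end do not say which start was used. They come from RefSeq on GRCm38.p6. Capitals mark matches to CACCC, the core of the site that Krüppel-like factors such as the erythroid factor Klf1 recognise, searched on both strands (reverse complement GGGTG).

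Apoe upstream window: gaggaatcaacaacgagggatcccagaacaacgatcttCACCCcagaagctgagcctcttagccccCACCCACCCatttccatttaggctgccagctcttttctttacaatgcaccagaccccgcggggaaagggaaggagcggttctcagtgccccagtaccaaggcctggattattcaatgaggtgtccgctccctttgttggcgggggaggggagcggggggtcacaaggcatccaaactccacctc

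The window held 3 such matches, of which a pair overlap by 1 base. Of 32817 RefSeq windows of 250 bases, 52.0% held at least 1. The GATA-factor motif GATAA, or TTATC on the other strand, had 0 matches here and was present in 22.6% of windows. These matches describe letters only and say nothing of binding.

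In the control library, Apoe was a transcript of the megakaryocyte, erythroid, basophil and stem-cell branches and was close to absent from neutrophil and B-cell precursors. Basophil/mast-like cells held the most, 2278 CPM (95% interval 2183 to 2375, 95 cells). Megakaryocyte-like cells followed with 947 CPM (932 to 963, 793 cells). Erythroid progenitor-like cells had 341 CPM (337 to 346, 1650 cells) and HSC/MPP-like cells, the class with stem and multipotent markers such as Hlf and Mecom, had 311 CPM (304 to 319, 1424 cells). Granulocyte progenitor-like cells had 92.9 CPM (86.7 to 99.5, 449 cells).

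The other classes were far below these. Monocyte/macrophage progenitor-like cells had 17.9 CPM, neutrophil-like cells 11.2 CPM and B-cell progenitor-like cells 10.7 CPM. The intervals of neighbouring classes did not overlap from basophil/mast-like down to monocyte/macrophage progenitor-like cells. From there down neighbours in the order did not differ beyond counting error. The erythroid and HSC/MPP-like classes exchanged places when doublets were kept or when Apoe was among the genes used for clustering. The erythroid level depended on how cells were weighted: it was 814 CPM as the mean over cells and 796 CPM after thinning to 2000 UMIs, both of which weight cells alike, against 341 CPM from summed counts. With doublets kept, granulocyte progenitor-like cells were at 46.7 CPM and monocyte/macrophage progenitor-like cells at 107 CPM, so those classes changed order. At the finer clustering granulocyte progenitor-like cells were at 37.0 CPM. Together, the 4 highest classes held 97.1% of the Apoe UMIs of the control library and 70.1% of its gene UMIs.

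Free RNA from broken cells gives UMIs in droplets whose cell does not express a gene, so shares of cells were read against a class that should lack Apoe. Neutrophil-like cells of the control library had an Apoe UMI in 11.3% of cells at a median of 13363 UMIs. Megakaryocyte-like cells had one in 96.0% of cells at 17961 UMIs, with a median of 14 Apoe UMIs per cell. HSC/MPP-like cells had one in 58.8% (exact binomial interval 56.2 to 61.4) at 14153 UMIs, with a median of 1. When each cell was thinned to 2000 UMIs, the shares were 68.3%, 31.3% and 1.87% in megakaryocyte-, HSC/MPP- and neutrophil-like cells, with 0, 2 and 30 shallower cells left out. The levels of neutrophil- and B-cell progenitor-like cells, and of monocyte/macrophage progenitor-like cells as classed here, are read as background.

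**Figure D1:**
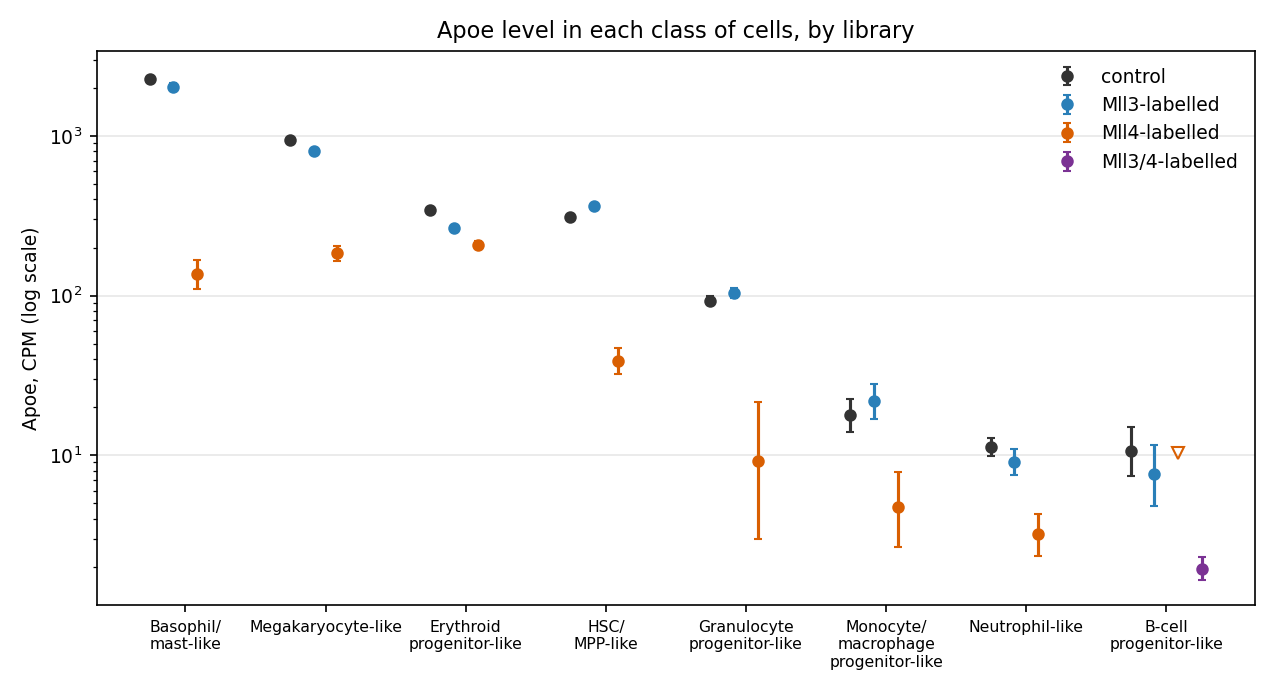
Apoe level in CPM (log axis) for 8 classes of cells in each library with at least 50 cells of the class. Points are summed counts, bars are exact Poisson 95% intervals, and the open triangle is the upper limit where 0 Apoe UMIs were counted. The Mll4-labelled points of the 5 highest classes lie below control, by the smallest margin in erythroid cells (207 against 341 CPM).

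Apoe was not uniform within the erythroid class. Its 3 clusters could be ordered by known erythroid genes: Klf1, the erythroid Krüppel-like factor, was at 91.5, 164 and 228 CPM in clusters 3, 6 and 10 of the control library, and Ermap, an erythroid membrane protein, at 71.6, 190 and 286 CPM. Apoe ran the other way, with 1512 CPM (1489 to 1535) in cluster 3, 397 CPM (387 to 408) in cluster 6 and 39.1 CPM (37.3 to 41.0) in cluster 10. Depth also rose from cluster 3 to 10, with medians of 15248.5, 47127.5 and 60357 UMIs per cell. The median Apoe UMIs per cell were 26, 15 and 1, so the fall per cell from cluster 3 to 6 was smaller than that in CPM. Gata2, a transcription factor of early progenitors, followed the direction of Apoe, with 165, 52.8 and 25.8 CPM. The same order of Apoe levels held in the Mll3-labelled library, with 1334, 448 and 35.3 CPM, and in the Mll4-labelled library, with 688, 403 and 41.2 CPM. At a finer clustering, the erythroid cluster of control with the most Apoe reached 2119 CPM and the one with the least had 19.1 CPM.

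The basophil/mast-like class also split. At the finer clustering, cells with Prss34 (165 CPM in control), a basophil protease, and 0 counts of Cma1, a mast cell chymase, had 2850 CPM of Apoe. Cells with Cma1 at 957 CPM had 565 CPM of Apoe, from 26 cells. The other genes looked at did not follow one direction: Mcpt8, a basophil protease, was at 611 CPM in the cells with more Apoe and 1055 CPM in those with less, and Ms4a2, a subunit of the IgE receptor, at 628 and 500.2 CPM.

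Surface antibodies gave a division of the same cells that used no transcript counts. Gates were set on CD117+ cells without B220, Gr1 or CD11b, with thresholds taken from control. Among Sca-1+ cells, Apoe was high where CD150 was present: 752 CPM (722 to 784) in CD150+ CD48- cells, the gate that is enriched for long-term stem cells, and 928 CPM (880 to 978) in CD150+ CD48+ cells. It was 103 CPM (94.2 to 113) in CD150- CD48+ cells and 139 CPM (115 to 166) in CD150- CD48- cells. Of the CD150+ CD48- cells, 94.5% had an Apoe UMI, or 65.1% after thinning to 2000 UMIs, against 15.5% in thinned CD150- CD48+ cells. CD150+ gates of Sca-1+ cells held other classes as well: 71.6% of the CD150+ CD48- cells and 98.6% of the CD150- CD48+ cells were HSC/MPP-like.

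Outside Sca-1, CD150 went with high Apoe too. Sca-1- CD150+ CD41+ cells, of which 64.5% were megakaryocyte-like, had 1096 CPM and Sca-1- CD150+ CD41- cells, of which 90.9% were erythroid progenitor-like, had 675 CPM. Without CD150, Sca-1- cells with CD41, an integrin of stem and megakaryocytic cells, had 516 CPM and those without it 89.6 CPM. By the older division with CD34 and CD16/32, Sca-1- CD34+ CD16/32+ cells, the gate of granulocyte-monocyte progenitors, had 83.6 CPM, below the 449 CPM of CD34- CD16/32- and the 358 CPM of CD34+ CD16/32- cells.

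**Figure D2:**
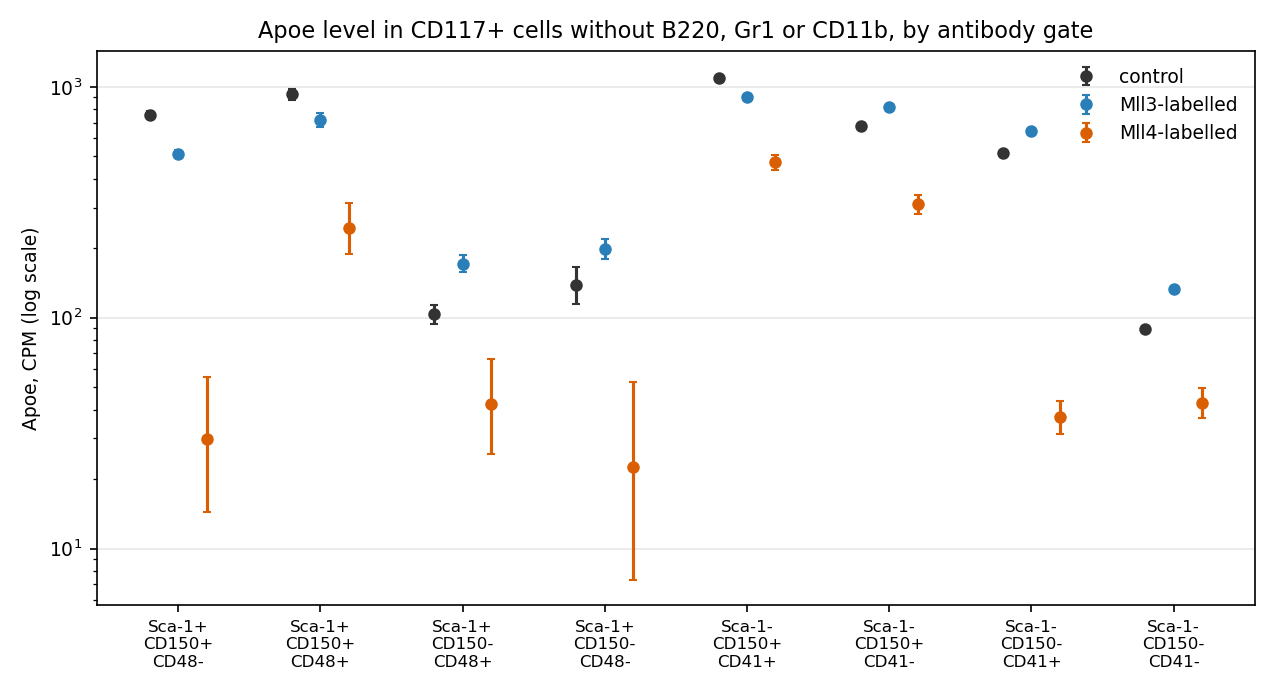
Apoe level in CPM (log axis) in 8 antibody gates of CD117+ cells without B220, Gr1 or CD11b, for control and the Mll3- and Mll4-labelled libraries. Points are summed counts and bars exact Poisson 95% intervals. In control, the CD150+ gates lie between 675 and 1096 CPM and the CD150- gates of Sca-1+ cells at 103 and 139 CPM, while the Mll4-labelled CD150+ CD48- cells are at 29.98 CPM.

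In the Mll3-labelled library Apoe differed from control by less than 2-fold in each named class with at least 50 cells in both libraries, in a direction that depended on the cell type. Larger differences stood in 1 antibody gate, given below, and in cluster 14, an unnamed cluster low in Apoe. Cluster 14 was at 42.4 against 16.9 CPM (log2 ratio 1.33, 0.79 to 1.87). There a single cell held 43 of the 68 Apoe UMIs of the Mll3-labelled library, and another 29 of the 53 in control. Only 12 and 18 cells had an Apoe UMI, and the shares after thinning were close, at 2.06% and 1.97%. The interval does not hold this spread between cells. The unnamed cluster 20 had a ratio of -1.47 from 7 cells against 2 in control. Over all kept cells it was at 286 CPM against 315 CPM in control, a log2 ratio of -0.14 (-0.16 to -0.12). Here a gene was counted as lower or higher at a 2-fold difference, with at least 20 counts in either library and a pseudocount of 1 CPM, and 0.46% of 14550 genes were lower and 0.199% higher by that rule. Apoe was not among them. In HSC/MPP-like cells it was at 365 against 311 CPM, a log2 ratio of 0.23 (0.18 to 0.28), where 0.616% of 12006 genes were lower and 0.292% higher by 2-fold.

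In the other high classes of the Mll3-labelled library Apoe was slightly lower. The log2 ratio was -0.23 (-0.26 to -0.19) in megakaryocyte-like cells, at 808 against 947 CPM, and -0.37 (-0.39 to -0.34) in erythroid progenitor-like cells, at 265 against 341 CPM. Basophil/mast-like cells had 2035 against 2278 CPM, a ratio of -0.16 (-0.27 to -0.06). The erythroid value was further from 0 than that of any of the 3 erythroid clusters, which had ratios of -0.18 (-0.21 to -0.15), 0.17 (0.12 to 0.23) and -0.15 (-0.24 to -0.05) in clusters 3, 6 and 10. Cluster 10, with the least Apoe, held 850 of 1602 erythroid cells in the Mll3-labelled library and 746 of 1650 in control. In monocyte/macrophage progenitor-, neutrophil- and B-cell progenitor-like cells, all at background, the intervals of the ratio included 0.

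The 2 hashtags of a library give a measure of spread within it. In HSC/MPP-like cells of control they had 367 and 247 CPM, a wider gap than that between the libraries, while Mll3-labelled cells had 362 and 358 CPM. In erythroid progenitor-like cells the control hashtags had 376 and 314 CPM and the Mll3-labelled ones 234 and 317 CPM. In megakaryocyte-like cells they had 906 and 998 CPM in control and 726 and 941 CPM in the Mll3-labelled library. The labels do not match hashtags across libraries, so ratios by hashtag pair them by number only, and another pairing would give other values. So paired, the second hashtag gave ratios near 0 in erythroid (0.01) and megakaryocyte-like cells (-0.08) and of 0.26 in basophil/mast-like cells. The first gave -0.02 in HSC/MPP-like cells. In none of these 4 classes did the small difference of the Mll3-labelled library keep its size in both hashtags under that pairing. Against all control cells, both hashtags stayed close to the cluster's ratio in HSC/MPP-like clusters 2 (0.19 and 0.19) and 12 (0.29 and 0.25). That comparison pools the control hashtags, which were at 368 and 262 CPM in cluster 2 and 366 and 211 CPM in cluster 12. The Mll3-labelled ones lay between them, at 367 and 366 CPM and at 354 and 345 CPM.

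By antibody gate, the Mll3-labelled library had less Apoe than control in Sca-1+ CD150+ CD48- cells, 512 against 752 CPM (log2 ratio -0.56, -0.64 to -0.47), and more in Sca-1+ CD150- CD48+ cells, 171 against 103 CPM (0.73, 0.55 to 0.91). It also had more in Sca-1- CD34+ CD16/32- cells, at 598 against 358 CPM, and in Sca-1- CD34+ CD16/32+ cells, at 192 against 83.6 CPM, a log2 ratio of 1.20 (1.06 to 1.34). The cells inside some of these gates differed between the libraries. HSC/MPP-like cells were 75.3% of the control and 59.3% of the Mll3-labelled CD34+ CD16/32- cells, and 71.6% and 62.5% of the CD150+ CD48- cells. The most common class had closer shares in the others. It was 98.6% and 96.4% HSC/MPP-like in CD150- CD48+ cells, and 39.0% and 38.7% granulocyte progenitor-like in CD34+ CD16/32+ cells. The part of makeup in the gate levels was not tested.

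In the Mll4-labelled library Apoe was lower than in control in each of the 5 classes in which control had it above background, and the size of the difference varied widely between them. Over all kept cells it was at 63.2 CPM (60.5 to 65.97) against 315 CPM, 4.99-fold lower. In the same comparison 2.91% of 14452 genes were at least 2-fold lower and 5.74% at least 2-fold higher, and 8 genes were lower by more than Apoe. These values chose the gene, as did those of the next sentence. In HSC/MPP-like cells Apoe was at 39.1 CPM (32.4 to 46.6, 122 UMIs in 525 cells) against 311 CPM, 7.98-fold lower, where 2.5% of 11928 genes were at least 2-fold lower and 3.76% higher. In those cells the HSC/MPP markers summed to 1285 CPM against 1310 CPM in control, and basophil and mast cell markers to 540 against 162 CPM, and the part of the latter in the Apoe level was not tested.

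The other classes were not named in that choice, but their values enter the library-wide value and are description too. Erythroid and megakaryocyte-like cells held 49.7% and 29.0% of the Apoe UMIs of control. Apoe was at 184 CPM (166 to 205) against 947 CPM in megakaryocyte-like cells, a log2 ratio of -2.36 (-2.52 to -2.21), where 2.93% of 11131 genes were at least 2-fold lower. It was at 137 CPM (110 to 167) against 2278 CPM in basophil/mast-like cells, -4.06 (-4.37 to -3.76), where 4.55% of 6347 genes were lower. Granulocyte progenitor-like cells had 5 Apoe UMIs in 87 cells, 9.22 CPM (2.99 to 21.5) against 92.9 CPM, where 8.58% of 10110 genes were lower. The smallest difference was in the erythroid class, with 207 CPM (197 to 218) against 341 CPM, -0.72 (-0.80 to -0.64). So the class with the most Apoe in control was not the class with the most in the Mll4-labelled library, where the order was erythroid, megakaryocyte-, basophil/mast- and HSC/MPP-like and the intervals of neighbours among the first 3 overlapped.

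Within the erythroid class the difference was largest in the early cluster. Cluster 3 was picked for the background share and the neighbouring genes as the erythroid cluster with the most Apoe in control. By Klf1, Ermap and Gata2 it was also the earliest. In cluster 3 the log2 ratio was -1.14 (-1.24 to -1.04), at 688 against 1512 CPM, where 2.62% of 10367 genes were at least 2-fold lower. In clusters 6 and 10 no difference was detectable, with ratios of 0.02 (-0.14 to 0.17) and 0.07 (-0.15 to 0.29). Erythroid stage genes were not read at the finer clustering, so its clusters are ordered here by their control Apoe alone. The cluster with the most had a ratio of -1.22 (908 against 2119 CPM). Those next in that order had -0.41 (450 against 598 CPM) and -0.31 (328 against 408 CPM), a smaller deficit. A cluster low in Apoe had -0.98 (-1.25 to -0.72), at 37.2 against 73.4 CPM. The one with the least had 0.38 (-0.51 to 1.14), at 24.8 against 19.1 CPM. Whether erythroid cells low in Apoe differed thus depended on how the clusters were drawn. Klf1 in cluster 6 was at 176 CPM in the Mll4-labelled library and 164 CPM in control, while Rhd, a later blood group protein, was at 2.18 CPM (2 counts) against 29.2 CPM and Gata2 at 109 against 52.8 CPM. The clusters thus did not hold cells of the same makeup in both libraries, and its part in the Apoe ratio was not tested.

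The basophil/mast-like class also differed in its cells. Genes of both mast cells and basophils were higher in the Mll4-labelled library, with Cma1 at 3215 against 182 CPM, Cpa3, mast cell carboxypeptidase, at 8091 against 1523 CPM and Mcpt8 at 2384 against 872 CPM. When the class was divided, cells with Prss34 and little or no Cma1 had 130 CPM of Apoe (39 UMIs in 84 cells) against 2850 CPM, a log2 ratio of -4.46 (-4.95 to -4.00). The cells with Cma1 had 160 against 565 CPM, -1.82 (-2.29 to -1.36). Apoe was thus lower in both parts, but the parts did not hold matched cells. In the part with Prss34, Cpa3 was at 2547 against 997 CPM and Mcpt8 at 1856 against 611 CPM. In the part with Cma1, Cma1 itself was at 5365 against 957 CPM and Cpa3 at 11710 against 3126 CPM. The part of these differences in the Apoe levels was not tested.

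Antibody gates use no transcript, but the stem-cell gates overlap the HSC/MPP-like cells whose values chose the gene. Of the Mll4-labelled Sca-1+ CD150+ CD48- cells, 72.6% were HSC/MPP-like. The lower Apoe in these gates is thus description as well. Sca-1+ CD150+ CD48- cells had 10 Apoe UMIs in 62 cells, or 29.98 CPM (14.4 to 55.1), against 2243 UMIs in 218 control cells, 752 CPM, a log2 ratio of -4.65 (-5.71 to -3.77). Sca-1+ CD150+ CD48+ cells had 245 against 928 CPM, and Sca-1+ CD150- CD48+ cells 42.5 against 103 CPM (-1.28, -2.03 to -0.62). Sca-1- CD34+ CD16/32- cells had 39.8 against 358 CPM, -3.17 (-3.43 to -2.92). In Sca-1- CD150- CD41+ cells the value was 37.0 against 516 CPM, -3.80 (-4.05 to -3.57), a larger gap than in the CD150+ Sca-1- gates, at -1.22 (-1.33 to -1.11) with CD41 and -1.12 (-1.26 to -0.99) without. Several of these gates differed in makeup. The HSC/MPP-like share was 98.6% in control and 68.6% in the Mll4-labelled library for Sca-1+ CD150- CD48+. It was 75.3% and 47.1% for Sca-1- CD34+ CD16/32-, and 47.8% and 31.7% for Sca-1- CD150- CD41+. For Sca-1+ CD150+ CD48- the shares were close, at 71.6% and 72.6%. How far makeup sets the size of each gap was not tested. The higher level of CD150+ over CD150- Sca-1+ cells in control was not seen between the CD48- gates of the Mll4-labelled library, which had 29.98 and 22.5 CPM from 10 and 5 UMIs.

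In thinned HSC/MPP-like cells the share of cells with Apoe differed more than the mean in those cells, and in basophil/mast-like cells both differed. After thinning to 2000 UMIs, 31.3% of control and 5.21% (3.46 to 7.49) of Mll4-labelled HSC/MPP-like cells had an Apoe UMI, with 2 and 7 shallower cells left out. The cells with one carried a mean of 2.23 UMIs in control and 2.0 in the Mll4-labelled library. Before thinning the shares were 58.8% and 9.52%, at median depths of 14153 and 5576 UMIs. Megakaryocyte-like cells had thinned shares of 68.3% and 19.8%, with means of 2.95 and 2.16, and basophil/mast-like cells 76.8% and 15.6%, with means of 5.42 and 1.46, where 66 shallower Mll4-labelled cells were left out. A mean over cells with a UMI cannot be under 1, so at this depth it does not separate share from level. In Sca-1+ CD150+ CD48- cells that mean was 2.31 in control and 1 in the Mll4-labelled library, from 142 and 3 cells with a UMI. In neutrophil-like cells, the background class, the thinned share was 1.87% in control and 0.604% in the Mll4-labelled library, and the unthinned shares were 11.3% and 1.34% at 13363 and 4899 UMIs.

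The 2 hashtags of the Mll4-labelled library differed from each other. Over all kept cells, those with the first hashtag alone had 95.3 CPM (90.8 to 100.1, 2713 cells) and those with the second alone 30.8 CPM (27.9 to 33.9, 2382 cells), against 339 and 294 CPM in control and 276 and 303 CPM in the Mll3-labelled library. The gap stood within several clusters. It was 848 and 382 CPM in early erythroid cluster 3 and 469 and 220 CPM in cluster 6. Megakaryocyte-like cluster 1 had 197 and 59.5 CPM, and HSC/MPP-like cluster 2 had 57.9 and 27.1 CPM. In megakaryocyte-like cluster 11 (250 and 185 CPM) and HSC/MPP-like cluster 12 (35.5 and 19.6 CPM) the order was the same, but the intervals overlapped. In basophil/mast-like cells the order was the other way, 127 and 145 CPM, and the intervals overlapped. Both hashtags were below both control hashtags in HSC/MPP-like, megakaryocyte-like, basophil/mast-like and early erythroid clusters. In cluster 6 they were not: the first hashtag was above all control cells by 0.24 (0.07 to 0.40) on the log2 scale and the second, with 18 cells, had a ratio of -0.85 (-1.27 to -0.47). Cluster 10 did the same, with ratios of 0.36 (0.11 to 0.60) and -0.67 (-1.16 to -0.21).

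**Figure D3:**
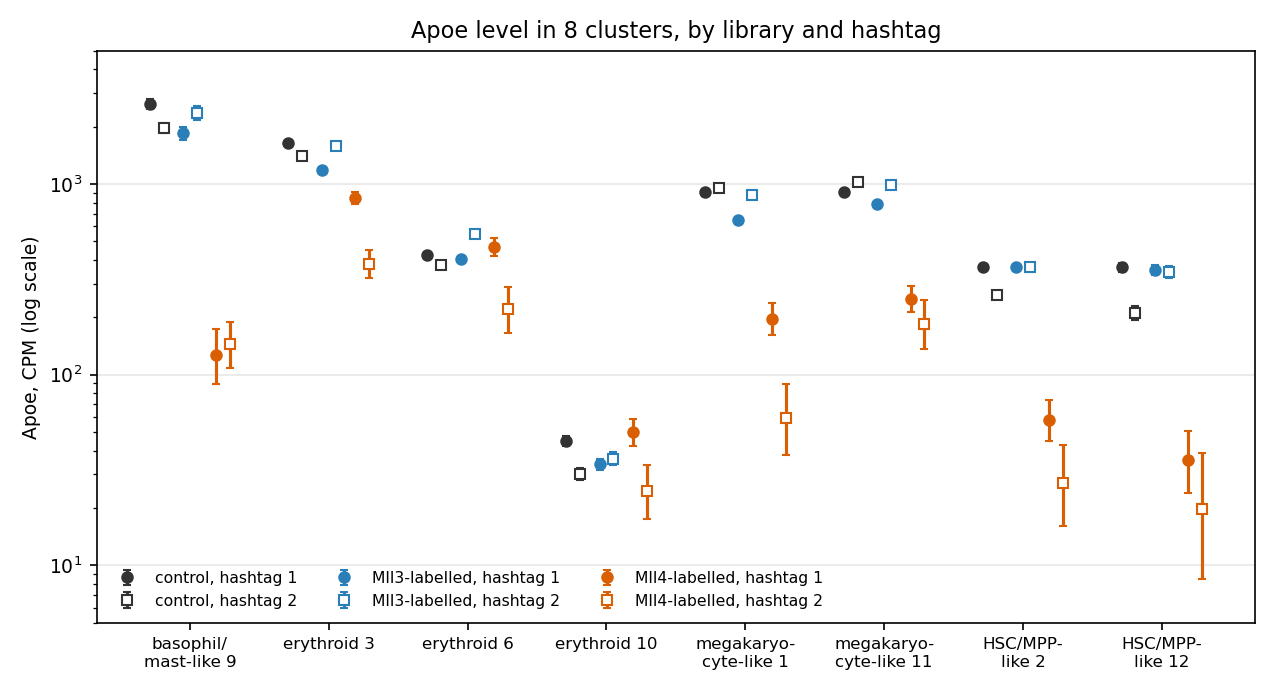
Apoe level in CPM (log axis) in 8 clusters for the cells of each hashtag (filled circles the first, open squares the second) in control and the Mll3- and Mll4-labelled libraries, with exact Poisson 95% intervals. In HSC/MPP-like cluster 2 all 4 control and Mll3-labelled points lie between 262 and 368 CPM and the Mll4-labelled points at 57.9 and 27.1 CPM, while in erythroid clusters 6 and 10 the Mll4-labelled points lie on both sides of control.

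Genes beside Apoe were compared next. Tomm40, which encodes a mitochondrial import pore and lies 2125 bases away, was at 133 CPM in Mll4-labelled and 110 CPM in control HSC/MPP-like cells, a log2 ratio of 0.28 (0.13 to 0.43). In megakaryocyte-like cells it was at 157 against 148 CPM and in early erythroid cluster 3 at 214 against 209 CPM. Clptm1, on the other side of Apoe at 31076 bases, was at 30.7 against 25.5 CPM in HSC/MPP-like, 32.6 against 29.9 CPM in megakaryocyte-like and 50.2 against 25.2 CPM in early erythroid cells. Apoc1, an apolipoprotein gene 3449 bases away, was barely counted, with 34 UMIs in control and 3 in Mll4-labelled HSC/MPP-like cells. The median gene of HSC/MPP-like cells had a ratio of 0.16. Of 8 neighbours listed, 6 could be measured in HSC/MPP-like cells, with 0 at least 2-fold lower and 0 higher, where all genes had 2.5% and 3.76%. Over all kept cells 7 could be measured, with 0 lower or higher in the Mll4-labelled library, beside 2.91% and 5.74% of all genes. Such counts are near the background, and the values of Tomm40 and Clptm1 carry the comparison.

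**Figure D4:**
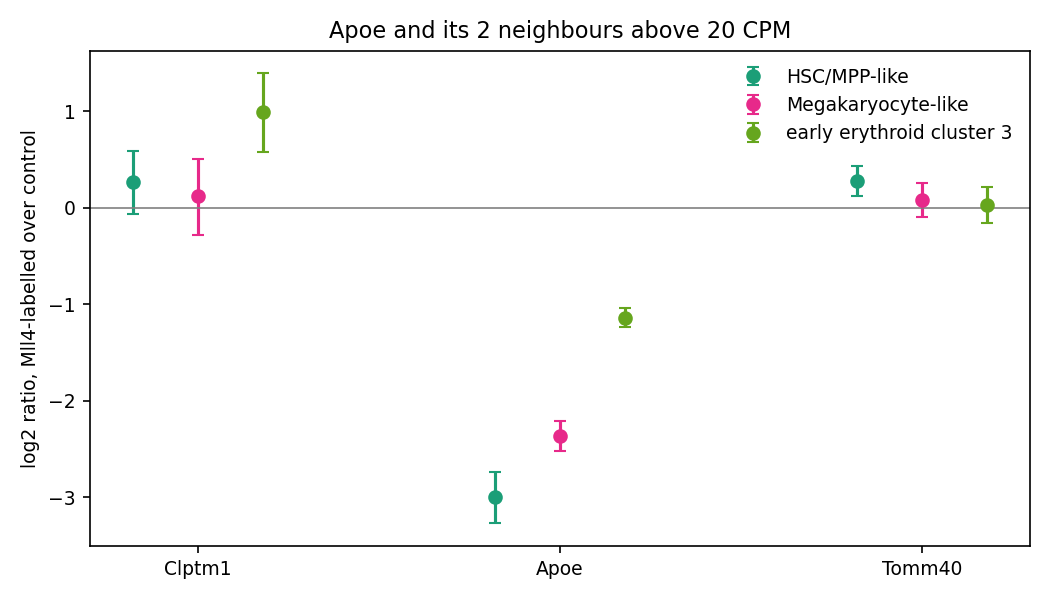
Log2 ratio of the Mll4-labelled library over control, with exact 95% counting intervals, for Apoe and for the 2 listed neighbours above 20 CPM in control, in HSC/MPP-like, megakaryocyte-like and early erythroid cells. Apoe lies between -3.00 and -1.14, while Tomm40 (209 and 214 CPM in early erythroid cells) stays near 0 and Clptm1 is at or above it.

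Genes of lipid handling were counted by the same 2-fold rule in HSC/MPP-like cells of the Mll4-labelled library, where 2.5% of all genes were lower and 3.76% higher, so that 0 in a short list is near the background. Of 8 listed receptors, 6 could be measured and 0 were 2-fold lower: Vldlr, a receptor for apolipoprotein E, was at 40.7 against 30.1 CPM. Of 18 efflux and LXR genes, 12 could be measured and 0 were 2-fold lower or higher. Abca1 was at 8.32 against 8.13 CPM and Abcg1 at 34.9 against 40.1 CPM (log2 ratio -0.20, -0.50 to 0.09). Nr1h2, the LXR gene with enough counts, was at 52.8 against 33.7 CPM. Of 13 other apolipoproteins, 4 had the 20 counts asked for, each below 3 CPM in both libraries.

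Cholesterol synthesis genes had a median log2 ratio of 0.51 in those cells, against 0.16 for all 11928 genes. Of 23 listed, 22 could be measured, 2 were at least 2-fold higher and 0 lower, a count near the 3.76% and 2.5% of all genes. The pair was Hmgcs1, which makes the precursor of mevalonate, at 48.7 against 23.5 CPM, and Dhcr7, the last step to cholesterol, at 19.8 against 9.20 CPM. In the Mll3-labelled HSC/MPP-like cells the list had a median of 0.10 with 0 genes past 2-fold, beside -0.03 for all genes. Over all kept cells of the Mll4-labelled library, where makeup also differs, 0 of 22 synthesis genes passed 2-fold in either direction.

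In the Mll3/4-labelled library Apoe was almost gone: 276 UMIs over 6917 cells, 3.55 CPM (3.15 to 4.00), 88.7-fold below control. By the 2-fold rule, 11.7% of 15158 genes were lower and 12% higher, and 3 genes were lower by more than Apoe. These values chose the gene. The library was of another makeup than control, with 6830 of its cells B-cell progenitor-like, a class with background levels of Apoe in control. Neighbours of Apoe differed too over all kept cells, and the part of makeup in this was not tested: Tomm40 was at 78.3 against 218 CPM, 2 of 7 measured neighbours were at least 2-fold lower and 1 higher, as were 1 and 1 of 6 other apolipoproteins, 2 and 0 of 7 receptors and 1 and 3 of 17 efflux and LXR genes.

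The Mll3/4-labelled cells that were not B-cell progenitor-like, 87 cells or 1.26% of the library, held 46.4% of its Apoe UMIs. The 6 megakaryocyte-like cells all had Apoe, with 69 UMIs or 403 CPM (314 to 510), and the 13 HSC/MPP-like cells had 18 UMIs or 65.2 CPM (38.7 to 103). The 7 basophil/mast-like cells had 37 UMIs or 792 CPM (558 to 1092). Each level was below that of control. The megakaryocyte- and basophil/mast-like levels were above those of the Mll4-labelled library, and the HSC/MPP-like intervals overlapped. A single basophil/mast-like cell held 28 of the 37 UMIs. The megakaryocyte-like clusters differed: 3 cells of cluster 1 had 792 against 925 CPM in control, a log2 ratio of -0.22 (-0.70 to 0.21). The 3 cells of cluster 11 had 229 against 965 CPM, close to the 227 CPM of the Mll4-labelled library there. The cells are few, 118 of the 128 UMIs outside the B-cell progenitor-like class came from cells of the second hashtag, and megakaryocyte markers summed to 397 CPM in the 6 megakaryocyte-like cells against 2670 CPM in control. Whether such cells carried the deletions was not tested.

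Among the 6830 B-cell progenitor-like cells of that library, 74 had an Apoe UMI, with 1.95 CPM (1.65 to 2.29) against 10.7 CPM in control, where 7.39% of 13456 genes were at least 2-fold lower. Both values are read as background. A single cell held 44 of the 148 UMIs together with 76 UMIs of the complement genes C1qa, C1qb and C1qc, markers of tissue macrophages. The 65 cells with a C1q UMI held 85 Apoe UMIs, and the cells without one had 0.839 CPM.

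Macrophage markers were checked in all libraries because macrophages make Apoe. Cells with a C1q UMI held 4.49% of the Apoe UMIs in control, 2.45% in the Mll3-labelled, 0.773% in the Mll4-labelled and 31.9% in the Mll3/4-labelled library. In HSC/MPP-like cells 10 listed macrophage markers summed to 10.9 CPM in control, 10.9 in the Mll3-labelled and 13.8 in the Mll4-labelled library, where Cd5l, Adgre1, Mertk and Axl were at 0. Without the cells with a C1q UMI, the log2 ratio in HSC/MPP-like cells of the Mll4-labelled library was -2.99 (-3.27 to -2.73), as large as with them.

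The level that makeup alone would give was computed from the control levels of each class. With control levels and its own makeup of classes, the Mll3-labelled library would have 333 CPM, the Mll4-labelled 214 CPM and the Mll3/4-labelled 15.9 CPM. The measured values were 286, 63.2 and 3.55 CPM. The Mll4-labelled library thus lay 3.39-fold below the value from its makeup, and the Mll3/4-labelled library 4.46-fold below. By cluster, which rests on 2 control cells of cluster 20 with 67 Apoe UMIs, the makeup value of the Mll4-labelled library was 327 CPM. The makeup value of the Mll4-labelled library was thus below or above that of control depending on the grouping, and its measured value was below both. For the Mll3/4-labelled library the remaining distance lies mostly in B-cell progenitor-like cells (10.7 and 1.95 CPM), whose levels are read as background.

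**Figure D5:**
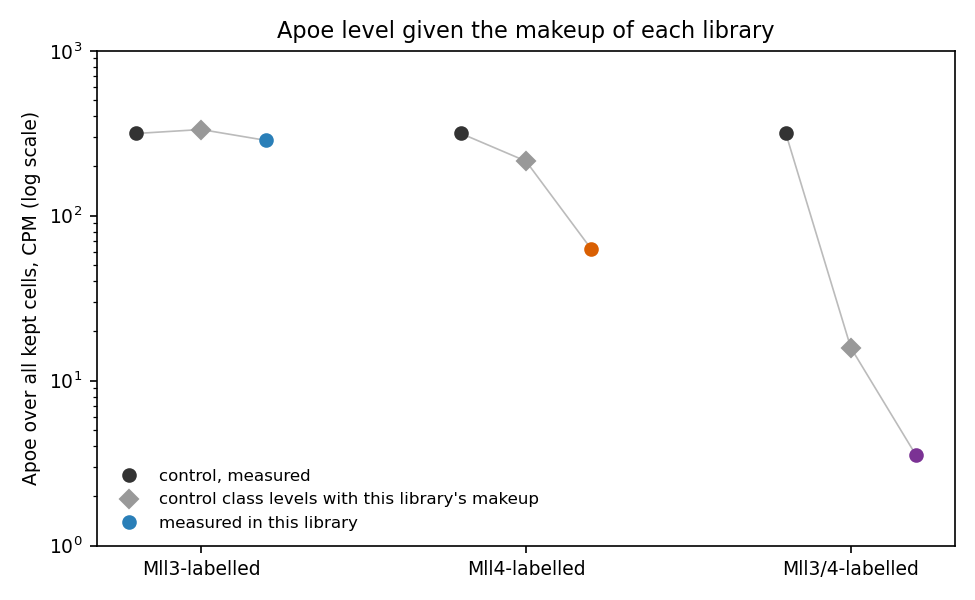
Apoe over all kept cells in CPM (log axis) for the 3 deleted libraries: control as measured (315 CPM), the value that control class levels would give with the makeup of the other library, and that library as measured. For the Mll3/4-labelled library most of the distance on the log axis lies between 315 and 15.9 CPM, and for the Mll4-labelled library between 214 and 63.2 CPM.

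The genes whose pattern was most like that of Apoe were sought over 27 groups of at least 50 cells, each a class in a library, by Pearson correlation of log2(CPM + 1) among 11055 genes. The groups share libraries and differ in depth, so the values are a description. They include 8 Mll4-labelled groups, so lower values of the chosen genes there are in part built into the choice. Sdsl, a serine dehydratase-like enzyme gene, was first with r = 0.95 and Icam4, an erythroid adhesion molecule, second with r = 0.92. They were followed by Pheta2, Slc22a3, Tal1, Rcn3, Mylk3, Ifitm1, Gata2 and Tfr2, with r down to 0.84. Sdsl in control was at 73.3 CPM in HSC/MPP-like, 113 in megakaryocyte-like and 141 in basophil/mast-like cells, and in the Mll4-labelled library at 38.7, 42.0 and 46.5 CPM. Ifitm1, an interferon-induced membrane protein, was at 521 against 160 CPM in HSC/MPP-like cells. Tal1 and Gata2, transcription factors of stem, erythroid and megakaryocytic cells, were not lower there: Gata2 was at 120 CPM in Mll4-labelled and 89.5 CPM in control HSC/MPP-like cells, and Tal1 at 52.5 and 46.2 CPM. By Spearman correlation 3 of the 10 genes stayed in the first 10.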

How the data were processed

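The authors deposited unnormalised UMI counts per gene and antibody for each library, made with Cell Ranger 6.1.2 on mm10, per the submitters' processing notes; cell-calling settings are not given in the sources used here. Of 32285 gene identifiers, 32158 were found in GENCODE M21.

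Barcodes with at least 500 genes, 1000 gene UMIs and at most 10% mitochondrial UMIs were kept. Doublets were scored with Scrublet in scanpy 1.11.5 and removed at 0.8% per 1000 barcodes, so some may remain. All 4 libraries were clustered together on 2000 variable genes without Apoe, Xist, Y-linked and mitochondrial genes, with 30 components, 15 neighbours and Leiden resolution 1. Clusters were named from fixed markers, so names are rebuilt rather than the authors'. Counts were not corrected for free RNA.

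Levels are summed counts as CPM with exact Poisson intervals, ratios have exact conditional binomial intervals, and shares exact binomial (Clopper-Pearson) intervals, all at 95%. Gates used antibody thresholds of at least 5 counts from a Gaussian mixture in control, which left out CD201, CD127 and CD135. Cells were assigned to a hashtag by the same kind of threshold, and those with both or none were left out there. No p-value was computed. The ratio step was tested on simulated counts.

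Apoe and the gene lists (neighbours, apolipoproteins, receptors, efflux and LXR, cholesterol synthesis, macrophage and other markers) were chosen with earlier results of these data known. Named genes are Apoe, list members, markers, Kmt2c, Kmt2d, Xist and the 10 genes most like Apoe. Alternatives covered doublets, filters, thinning, C1q cells, hashtags, scaling (trimmed mean of edgeR 4.0.16) and clustering. The values of 1 listed gene are not reported here.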

Additional observations from a re-analysis of the deposited data

Results flagged for a closer look

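In the Mll3-labelled library the difference from control had opposite directions in different classes, with counting intervals that exclude 0 on both sides. The gap between classes itself was not tested, since there is 1 library per group. The log2 ratio of HSC/MPP-like cells exceeded that of erythroid progenitor-like cells by 0.59, of megakaryocyte-like cells by 0.46 and of basophil/mast-like cells by 0.39. For granulocyte progenitor-like cells, at 104 against 92.9 CPM, the same gaps were 0.53, 0.39 and 0.32. With cells of the first hashtag alone in both libraries, a pairing by number only, the HSC/MPP-like ratio was -0.02. For granulocyte progenitor-like cells the ratio was 0.0028 with the second hashtag alone, 0.016 after thinning to 2000 UMIs and 0.43 at the finer clustering. With the second hashtag the erythroid and basophil/mast-like ratios were 0.010 and 0.26, so the gap to the first all but closed and the gap to the second had the other sign.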

How the results depend on the processing

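No paired analysis was possible because each group is 1 library. All values are log2 ratios to control, and the cause of each shift was not tested. Values by hashtag pair the same hashtag number in both libraries, a match that the labels do not give. In the order Mll3-, Mll4- and Mll3/4-labelled, all kept cells had -0.29, -1.83 and -8.04 with the first hashtag only and 0.041 (reversed), -3.26 and -5.54 with the second. Thinned cells gave -0.016, -2.63 and -7.06, and the mean of the cells' shares -0.077, -2.57 and -6.99. Trimmed mean scaling gave -0.10 and -2.42 for Mll3 and Mll4, and leaving out C1q cells -7.00 for Mll3/4.

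Within classes of the Mll3-labelled library, HSC/MPP-like cells had 0.16 with doublets kept, 0.16 by the mean of shares, 0.17 thinned, -0.020 (reversed) and 0.54 by first and second hashtag, and 0.35 at resolution 2. Megakaryocyte-like cells had -0.17 by trimmed mean, -0.14 by mean of shares and -0.14 thinned, -0.32 and -0.085 by hashtag, and -0.41 at resolution 2. Erythroid cells had -0.30 by trimmed mean and thinned, -0.31 with doublets kept and with the other clustering seed, and -0.69 and 0.010 (reversed) by hashtag. Basophil/mast-like cells had 0.26 (reversed) with the second hashtag. Set against all control cells, an alternative chosen after seeing the data, second-hashtag cells reversed in clusters 11 (0.038), 9 (0.045) and 3 (0.065). Both hashtags stayed within the interval in HSC/MPP-like clusters 2 (0.19 and 0.19) and 12 (0.29 and 0.25) and in erythroid cluster 10 (-0.21 and -0.11). In clusters 2 and 12 their levels lay between those of the control hashtags. Clusters 1 and 6 moved without a change of sign.

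In the Mll4-labelled library no class ratio changed sign under any alternative run. HSC/MPP-like cells had -3.35 with the second hashtag and -2.22 with Apoe among the clustering genes. Megakaryocyte-like cells had -2.58 by trimmed mean, -2.01 and -3.19 by hashtag and -2.55 at resolution 2. Erythroid cells had -1.01 by trimmed mean, -0.94 by mean of shares, -0.96 thinned, and -0.52 and -1.59 by hashtag. B-cell progenitor-like cells of the Mll3/4-labelled library had -4.00 with doublets kept, -3.10 thinned, -3.65 without C1q cells, and -3.27 and -1.70 by hashtag.

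Over all ratios, 149 values under alternatives stayed within their counting interval, 76 moved and 7 reversed. The share of genes at least 2-fold lower in Mll4-labelled HSC/MPP-like cells, 2.5%, lay between 1.74% and 4.27%. Control levels over the alternatives ran from 1966 to 2623 CPM in basophil/mast-like, 757 to 1041 in megakaryocyte-like, 314 to 814 in erythroid, 247 to 387 in HSC/MPP-like, 36.4 to 118 in granulocyte progenitor-like, 16.5 to 107 in monocyte/macrophage progenitor-like, 8.59 to 13.4 in neutrophil-like and 9.73 to 30.9 CPM in B-cell progenitor-like cells. The Mll4-labelled granulocyte progenitor-like value rests on 5 Apoe UMIs.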

Other observations

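Cluster 20, which stayed unnamed and is led by MHC class II genes, held 2 control cells with 67 Apoe UMIs (9217 CPM), 7 Mll3-labelled cells with 121 Apoe UMIs (3316 CPM) and 107 Mll4-labelled cells with 3 (8.98 CPM). The high level of the few control and Mll3-labelled cells was thus not seen in the many Mll4-labelled cells of the cluster. At the finer clustering, 254 Mll4-labelled cells formed an unnamed cluster of their own, with HSC/MPP markers scoring highest among the classes and 59.5 CPM of Apoe (46.5 to 75.0). The other finer clusters of that kind had 71.9, 19.2 and 30.1 CPM in the Mll4-labelled library, against 322, 315 and 252 CPM in control.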
